A study of Mus musculus with 4 samples.

Results

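The microRNA genes and microRNA host genes of cultured mouse tooth germs were taken as the rows of a CAGE count table whose gene symbol starts with Mir followed by a digit or let7. The rule found 145 rows among 15887 in the whole table, carrying 144 symbols because Mir1949 appeared under 2 gene identifiers. Of these rows, 137 were named for a microRNA gene and 8 for a host gene, the longer transcript from which a microRNA is cut (Mir17hg, Mir22hg, Mir99ahg, Mir100hg, Mir142hg, Mir155hg, Mir205hg and Mir670hg). CAGE (cap analysis of gene expression) reads the capped 5′ ends of RNA, so a count is a tag from a transcription start assigned to a gene name, not a mature microRNA.

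Tooth germs of ICR mice were cultured with the solvent DMSO or the anticancer drug cyclophosphamide (CPA) at 37 °C or 25 °C, with 1 library for each combination. Counts are given throughout in the order 37°C_DMSO and 37°C_CPA, then 25°C_DMSO and 25°C_CPA. The design text and the study's methods place RNA isolation after 3 days with the agent, while the treatment protocol adds 4 days in fresh medium with DMSO, so the time of sampling is uncertain. In the paper's growth experiment those 4 days were at 37 °C, also after treatment at 25 °C. The temperature at sampling is therefore uncertain too, and 25 °C or cold libraries here means those treated at 25 °C. Each group drew on several tooth germs. The sample records gave the CPA dose as 0.25 mM and the design text as 2.5 mM, and the embryonic stage as E14.5 in one field and E13.5 in another. No condition was repeated, so the comparisons are between single libraries, without a replicate check and without p-values. Whole organs were used, so fewer cells of a type and less RNA per cell cannot be told apart.

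MicroRNAs are short RNAs that guide Argonaute proteins to messenger RNAs and lower their output. Most are transcribed as capped primary transcripts, either from their own promoter or inside a host gene, then cut by Drosha and Dgcr8 in the nucleus, exported by Xpo5 and cut again by Dicer1. The seed, bases 2 to 8 of the mature strand, does most of the target pairing, so microRNAs with one seed are treated as a family. In the developing tooth, the miR-200 family and miR-203 and miR-205 are known from epithelium, and miR-199a and miR-214 from mesenchyme.

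RefSeq (GRCm38.p6) held an entry for 125 of the 144 symbols, with 200 mature sequences. In each printed sequence the capitals mark the seed. The first set shows the families followed in the text, whose members share a seed: let-7i and let-7e, the 3p strands of miR-34b and miR-34c, the miR-199 loci, miR-125a and miR-125b, and miR-148a and miR-152. Only miR-34b and miR-34c among these also shared their counts. The strands of miR-200c and miR-141 stand together because their rows held the same counts.
let-7i-5p: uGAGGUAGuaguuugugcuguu
let-7i-3p: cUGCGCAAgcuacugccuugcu
let-7e-5p: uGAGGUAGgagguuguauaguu
let-7e-3p: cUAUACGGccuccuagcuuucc
miR-34b-5p: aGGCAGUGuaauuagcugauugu
miR-34b-3p: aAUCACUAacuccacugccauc
miR-34c-3p: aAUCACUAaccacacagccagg
miR-199a-5p: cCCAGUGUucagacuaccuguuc
miR-199a-3p: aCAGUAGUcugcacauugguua
miR-199b-3p: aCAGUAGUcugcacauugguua
miR-125a-5p: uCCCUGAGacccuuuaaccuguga
miR-125b-5p: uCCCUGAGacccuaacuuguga
miR-148a-3p: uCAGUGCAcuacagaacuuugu
miR-152-3p: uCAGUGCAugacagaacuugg
miR-200c-5p: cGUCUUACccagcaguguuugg
miR-200c-3p: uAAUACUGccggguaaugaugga
miR-141-5p: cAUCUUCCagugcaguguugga
miR-141-3p: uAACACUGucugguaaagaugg

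MiR-199a and miR-199b share the whole printed 3p strand, and both let-7 strands open with the seed GAGGUAG. The seeds of miR-200c-3p and miR-141-3p, AAUACUG and AACACUG, are not the same. In all, 9 seeds were shared by 2 or more members, covering 17 symbols. The second set holds the other microRNAs whose rows differed at least 2-fold in a comparison and that had an entry. They are shown because the temperature results rest on them.
miR-6973a-5p: uACGGUGGgagggguggaguug
miR-6973a-3p: cACUCUAAcccuaccuacccau
miR-6973b-5p: gUAGGUAUggggagaggacaggga
miR-6973b-3p: uGCUCUCUuacccuuccuag
miR-5103: uCAUCCGGgauccccugagg
miR-3072-5p: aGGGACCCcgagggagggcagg
miR-3072-3p: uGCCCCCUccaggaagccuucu
miR-3091-5p: cAUGGGUCugguugggcccgc
miR-3091-3p: cGGGCCUGaccagucucaagac
miR-7009-5p: uUGGGGUCaggggaccagagcu
miR-7009-3p: uCUUUUCCccucucccugcag
miR-5131: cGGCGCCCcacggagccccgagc
miR-574-5p: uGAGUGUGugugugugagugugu
miR-574-3p: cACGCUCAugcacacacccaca
miR-483-5p: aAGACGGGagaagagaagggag
miR-483-3p: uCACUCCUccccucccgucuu
miR-5620-5p: aCGAGGCAggggcuuugacugug
miR-8114: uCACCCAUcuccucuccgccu
miR-7653-5p: uAAGGGGCggacagacagacgg
miR-7653-3p: cCCCUACUguuccaccccgccu
miR-8116: aAGGAUCCggggcuaguuggc
miR-7090-5p: uCUCAGAGuugggacaccaugag
miR-7090-3p: uUUGAUGUcugacuuugcag
miR-7067-5p: uGCAGGGGgugguugcacacgga
miR-7067-3p: uGAUUGCUucccuccccacag
miR-7649-5p: uGACAGCAgugcuguagacaug
miR-7649-3p: uCUCUCCAgcacugcuuguuucu
miR-6236: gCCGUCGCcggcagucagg

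Among the 10 members with the most counts, these microRNAs had an entry.
miR-682: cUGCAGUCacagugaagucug
miR-675-5p: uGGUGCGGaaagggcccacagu
miR-675-3p: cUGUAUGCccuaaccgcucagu
miR-207: gCUUCUCCuggcucuccucccuc
miR-688: uCGCAGGCgacuacuuauuc
miR-7036b-5p: aCGCGGGGuucucuguggaagc
miR-7036b-3p: uUCCUGGUgggccucggggucc
miR-5136: aUAUGCGAgggaacuacugg

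Many of these rows do not measure a microRNA locus apart from its neighbours. All 4 counts equalled those of another row in 76 of the 145 members (52.4%), against 915 of the 15887 rows of the table (5.76%). In 68 of the 76 the other row was a gene that is not a microRNA, and tags there may belong to that gene. Mir207 had the counts of Dnaja1, a co-chaperone of heat shock protein 70, Mir3091 those of the ribosomal protein gene Rps21, and Mir7009 those of Anxa5, which encodes the phospholipid-binding annexin A5. The remaining 8 shared counts only with another microRNA row: Mir599 with Mir875, Mir34b with Mir34c, Mir125a with Mirlet7e, and the Mir1949 pair. Taking each set of counts once left 137 distinct sets.

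Rows with counts of their own were also often tied to a gene. Of the 69, 8 were host genes, 44 lay inside a gene on the same strand that has a row, and 17 did not. Of the 44, 10 held 90 to 110% of that gene's summed counts, 12 held 10 to 90%, 21 held under 10%, and Mir8116 held more counts than Ache, the acetylcholinesterase gene it overlaps. Mir675 held 96.3% of the counts of H19, the imprinted non-coding RNA it is cut from, and Mir483 held 4.08% of those of Igf2, an imprinted growth factor gene. H19 and Mir675 therefore cannot be read apart, while most tags of Igf2 were not assigned to Mir483.

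The GENCODE vM1 annotation of mm9, the build the tags were aligned to, held 72 of the 137 microRNA rows. There, 26 hairpins lay in an exon and 20 in an intron of a gene on the same strand, 6 lay in a gene on the opposite strand (5 in an intron), and 20 lay outside other genes. The hairpin start lay a median of 175 bases from the nearest start of a same-strand gene in 40 rows that shared counts with another gene, and 30 of them lay within 1000 bases. The median was 2202 bases in 26 rows with counts of their own, 12 within 1000 bases.

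**Figure D1:**
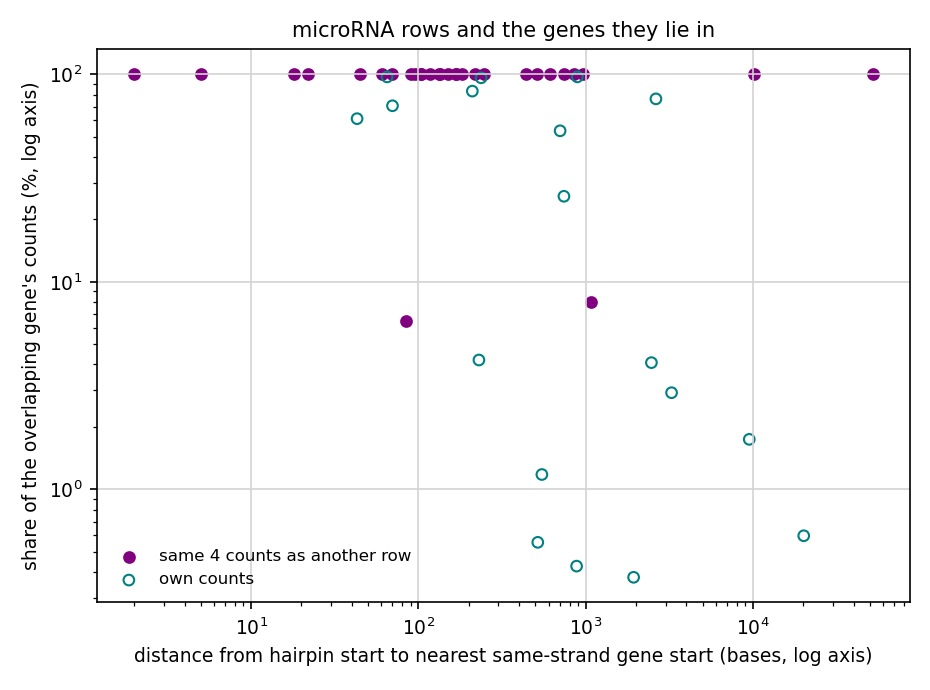
Share of the overlapping gene's summed counts held by a microRNA row (percent, log axis) against the distance from the hairpin start to the nearest same-strand gene start (bases, log axis), for 48 microRNA rows with both values. Most of the 30 filled points, rows with the same 4 counts as another row, sit at 100%, and the 18 open points, rows with counts of their own, spread down to under 1%.

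The libraries held 15101186 to 16449264 counts, and a floor of 3 counts stood for 0.177 to 0.205 CPM, the count per 1000000 counts of a library after TMM scaling. Marker genes of dental epithelium (Krt14, Krt5, Cdh1, Epcam) summed to 901 to 1208 CPM, with 0 of 4 called in any comparison, and those of dental mesenchyme (Msx1, Pax9, Barx1, Vim, Col1a1) to 1179 to 3443 CPM, with no marker of either list at 0. Of the dental mesenchyme markers, 1 of 5 was called lower at 25 °C in DMSO and 1 of 5 in CPA. Of the other lists, bone and odontoblast markers summed to 334, 26.8, 35.8 and 58.0 CPM in the order of the libraries, macrophage and leukocyte markers to 96.4, 63.2, 53.8 and 55.7, skeletal muscle markers to 62.9, 24.4, 33.5 and 43.2, and erythroid markers to 7.62, 11.6, 113 and 81.9. Endothelial markers ranged from 30.2 to 74.0 CPM, nerve and neuron markers from 11.3 to 18.9, and markers of cornifying epidermis from 53.03 to 164, with 1 of 3 at 0 in each library at 25 °C.

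The members took 0.962 and 1.03% of all counts at 37 °C, in DMSO and CPA, and 1.21 and 1.22% at 25 °C. Summed over the libraries a member held 14 to 338165 counts, with a median of 630, and 103 of 145 reached 50 counts in a library. Mir682 held 63773, 68932, 101475 and 103985 counts in that order, the same as the pseudogene Gm4149, in an exon of which it lies (chr13:75782494-75782589, plus strand, mm9). Tags of a pseudogene can come from near-identical copies, so its source is uncertain. With each set of counts taken once, Mir682 made up 41.1, 44.5, 56.8 and 56.9% of the members' counts, more in both 25 °C libraries than in both 37 °C libraries.

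By summed counts, Mir6236 followed with 10807, 19403, 7774 and 8003 counts, highest in 37°C_CPA. Mir675 came next with 11815, 8721, 7964 and 7058 (chr7:149762969-149763052, minus strand, in an exon of H19), highest in 37°C_DMSO. Mir207 held 7351, 5738, 6073 and 6914 and Mir7009 8949, 5763, 1657 and 1683. The other members among the highest 10 were Mir688, with the counts of Atp5g2, a subunit of the mitochondrial ATP synthase, Mir3091, Mir100hg, Mir7036b, which held 99.1% of the counts of the cytoskeletal adducin gene Add1, and Mir5136, with the counts of the small nucleolar RNA gene Snora57. Of these 10, only Mir100hg was a named microRNA host gene.

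Few members differed with CPA at 37 °C. A row was measured in a comparison when its higher library held at least 50 counts, and called when the fold between libraries, after TMM scaling, was 2 or more. Among 98 measured members, 1 was called higher in 37°C_CPA and 1 lower, where 2.4% and 1.59% of all measured rows were. The median log2 fold was -0.02 over the members and -0.02 over all rows. Folds are given with the 95% interval of the split of both counts, which covers counting error only.

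Mir124a-3, 1 of the genes for the neuronal microRNA miR-124, was the member called higher. It held 35, 163, 0 and 1 counts, equal in all libraries to those of Gm27032. The row was highest in 37°C_CPA and nearly empty in both libraries at 25 °C. CPA over DMSO at 37 °C gave 5.04-fold (3.48 to 7.49) for it, and at 25 °C neither library exceeded the floor of 3 counts, so no fold is given. The hairpin lies outside other vM1 genes (chr2:180628736-180628822, plus strand, mm9), which need not be the genes the tags were assigned with. Nerve and neuron markers summed to 11.3, 11.9, 15.6 and 18.9 CPM in the order of the libraries. With CPA at 37 °C only 1 of these markers was measured, and it was not called. Their part in the Mir124a-3 difference was not tested.

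Mir6973a was the member called lower. It held 107, 23, 354 and 319 counts, and Ltb, the gene for the immune cytokine lymphotoxin beta on the same strand, held 106, 23, 351 and 306. The 37°C_CPA library stood below the other libraries. It was 4.30-fold (2.72 to 7.07) lower with CPA at 37 °C, and CPA over DMSO at 25 °C was 0.878-fold (0.752 to 1.02). Of 5 macrophage and leukocyte markers measured, 4 were called lower with CPA at 37 °C, and 0 of 5 were at 0 in any library. Their part in the Mir6973a difference was not tested.

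Mir34b and Mir34c, known as targets of the tumour suppressor p53, shared 0, 18, 3 and 2 counts. Of the 4 libraries, 37°C_CPA was the highest. These counts are under the minimum of 50, and against the empty 37°C_DMSO library the CPA library was at least 6.50-fold higher, taking 3 counts as the floor of each library (the counting interval starts at 4.76). No fold is given at 25 °C, where both libraries held 3 counts or fewer. Both hairpins lie outside other vM1 genes, on the minus strand of mm9, at chr9:50911667-50911750 and chr9:50911139-50911215. Their 3p strands share the seed AUCACUA shown above.

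Next to the threshold stood Mir6236, 1.94-fold (1.90 to 1.99) over DMSO with CPA at 37 °C and 1.00-fold (0.972 to 1.03) at 25 °C. Its count was highest in 37°C_CPA. Mir6359 followed at 1.72-fold (1.31 to 2.26), with the counts of Rttn, a centriole protein gene. Nearest on the lower side was Mir1906-1, at the start of the imprinted non-coding RNA Meg3, which held 87, 42, 52 and 46 counts and was 1.91-fold (1.31 to 2.83) lower. Its mature strand is also coded by Mir1906-2, and whether tags of these loci can be told apart was not tested. None of these reached 2-fold.

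CPA at 25 °C called none of 99 measured members in either direction, where 0.142% of all measured rows were called higher and 0.118% lower. The median log2 fold was -0.02 over the members and 0.00 over all rows. Mir6973a, Mir6236 and Mir3091 had CPM of 24.2, 532 and 350 in 25°C_DMSO and 21.3, 534 and 350 in 25°C_CPA. On the lower side the fold nearest the threshold was 1.64-fold (1.31 to 2.07) for Mir7084, inside Elof1. On the higher side it was 1.45-fold (1.10 to 1.92) for Mir5103. The difference between the CPA folds at both temperatures was not tested, as each rests on 1 library per condition.

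**Figure D2:**
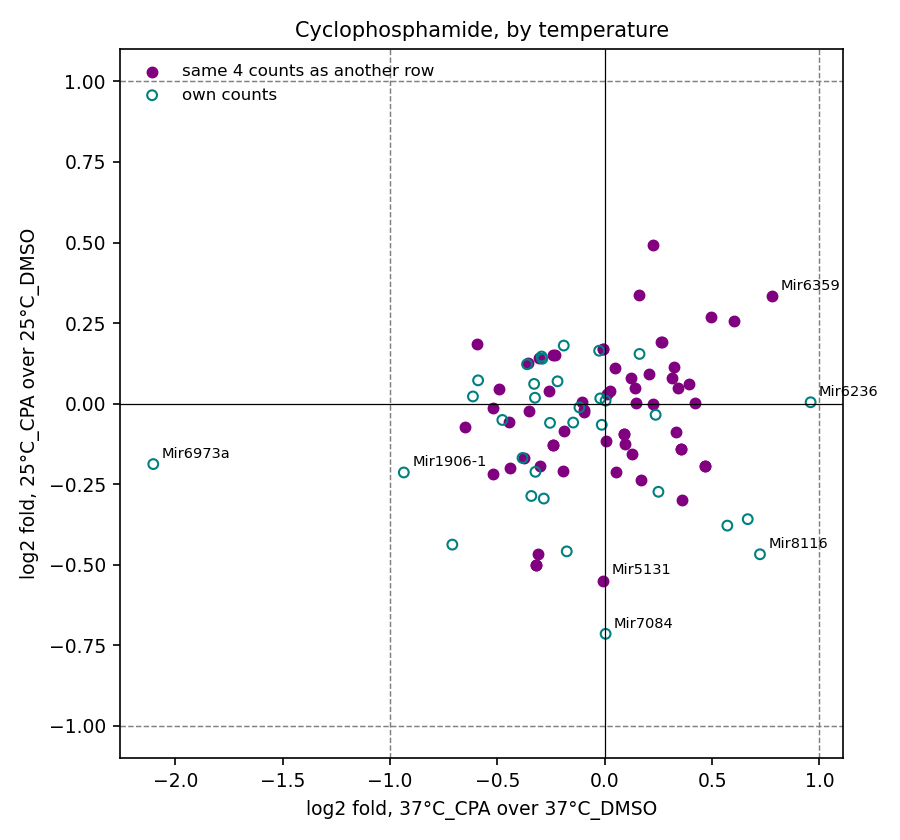
Log2 fold of each of 94 members measured at both temperatures, CPA over DMSO at 37 °C (x axis) and at 25 °C (y axis), with dashed lines at 2-fold; filled points share all 4 counts with another row. Mir6973a lies beyond 2-fold at 37 °C, no member does at 25 °C, and Mir124a-3 is not drawn because it was not measured at 25 °C.

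More members were called between the temperatures. In DMSO, 12 of 100 measured members were called higher at 25 °C and 5 lower, where 6.45% of all measured rows were called higher and 11.5% lower. In CPA, 13 of 101 were called higher at 25 °C and 7 lower, where 6.32% and 10.9% of all measured rows were. The median log2 fold of the members was 0.17 in DMSO and 0.15 in CPA, and that of all rows was -0.01 and 0.00. With identical counts taken once, 11 of 94 were higher and 5 lower in DMSO, and 12 of 95 were higher and 6 lower in CPA.

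The temperature comparisons in DMSO and in CPA share no library. Of the members called higher at 25 °C, 9 were called in both, which is 75% of the DMSO calls and 69.2% of the CPA calls: Mir199a-2, Mir599, Mir875, Mir3072, Mir3091, Mir5103, Mir6973a, Mir6973b and Mir7666. Over all rows, 538 were called higher in both, 61.8% of the DMSO calls and 63.8% of the CPA calls. Of those called lower, 2 were called in both (Mir5131 and Mir7009), 40% of the DMSO calls and 28.6% of the CPA calls. Over all rows, 960 were called lower in both, 61.7% and 65.9%. The comparison of CPA over DMSO at 37 °C shares a library with each of these temperature comparisons, and so does that at 25 °C.

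**Figure D3:**
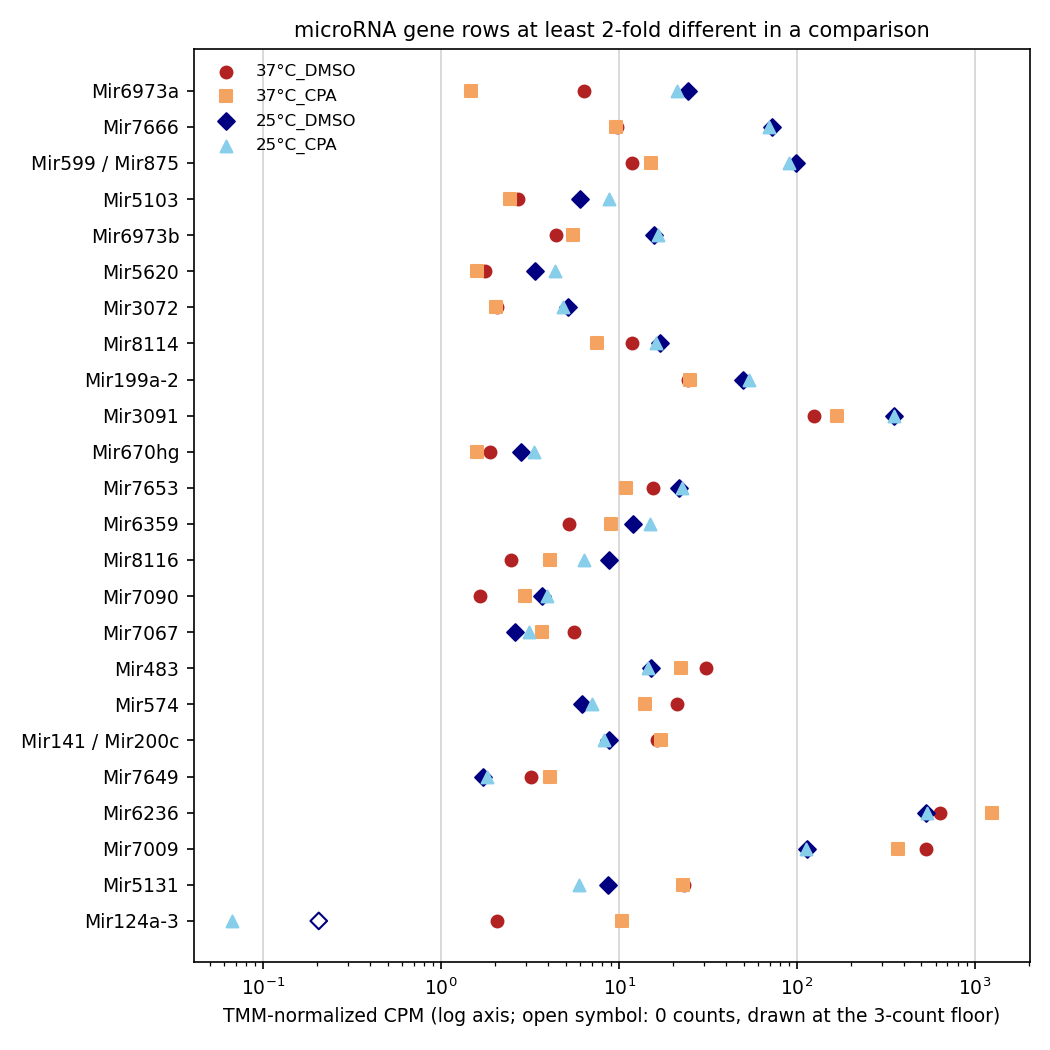
TMM-normalized CPM (log axis) of the 24 distinct sets of counts called at 2-fold or more in any of the 4 comparisons, 1 symbol per library and the open symbol marking 0 counts drawn at the 3-count floor. From Mir6973a to Mir3091 at the top, both 25 °C libraries lie right of both 37 °C libraries, and for Mir7009, Mir5131 and Mir124a-3 at the bottom they lie left.

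Mir599 and Mir875 lie next to each other in an intron of Vps13b, on the opposite strand from it (chr15:35590586-35590673 and chr15:35590725-35590802, mm9). They shared 200, 236, 1445 and 1345 counts, and both 25 °C libraries were far above both 37 °C libraries. The folds at 25 °C over 37 °C were 8.37-fold (7.22 to 9.76) in DMSO and 5.94-fold (5.17 to 6.86) in CPA. Vps13b itself, a vesicle transport gene, held 797, 804, 877 and 861 counts, with folds of 1.27 and 1.12. Mir7666 followed the same order with 164, 150, 1057 and 1036 counts, 7.47-fold (6.33 to 8.86) higher in DMSO and 7.20-fold (6.06 to 8.61) higher in CPA, and Micu3, a gene for a regulator of mitochondrial calcium uptake on the opposite strand, held 142, 148, 303 and 249.

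Mir6973a at 25 °C was 3.83-fold (3.08 to 4.81) higher in DMSO and 14.5-fold (9.47 to 23.1) higher in CPA, where the 37°C_CPA library had also set the lower call with the drug. Of 5 macrophage and leukocyte markers, 3 were called lower and 0 higher at 25 °C in DMSO, unlike Mir6973a. In CPA, 1 of 5 was called higher and 0 lower. Mir6973b, which shared the counts of Gfra4, a receptor gene of the GDNF family, held 75, 86, 228 and 247. Both cold libraries were again the highest, at 3.52-fold (2.70 to 4.64) and 3.00-fold (2.33 to 3.87). The strands printed for Mir6973a and Mir6973b share no seed.

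Mir3091 lies in an intron of Rps21 (chr2:179992241-179992316, plus strand) and shared its 2107, 2605, 5114 and 5255 counts, 2.81-fold (2.67 to 2.96) higher at 25 °C in DMSO and 2.10-fold (2.01 to 2.21) in CPA. Mir5103 shared 46, 38, 88 and 131 counts with Gm37233, and Mir3072 shared 35, 32, 75 and 73 with Mirg, a maternally expressed RNA of an imprinted cluster of microRNAs. Their cold folds were 2.22-fold (1.53 to 3.24) and 3.60-fold (2.49 to 5.30) for Mir5103 and 2.48-fold (1.64 to 3.82) and 2.38-fold (1.55 to 3.73) for Mir3072. All 3 rows were higher in both 25 °C libraries than in both 37 °C libraries.

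Erythroid markers moved in the same direction. Of 3 measured, 3 were called higher at 25 °C in DMSO and 3 in CPA, with none at 0 in any library. Their part in the cold differences of the members was not tested.

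Several members were called in 1 of the drug states only. Mir6359 (89, 141, 174 and 225 counts), Mir7090 in Ctnnb1, the beta-catenin gene (28, 46, 54 and 59), and Mir8116 (42, 64, 128 and 95) were called higher in DMSO, with folds of 2.27-fold, 2.23-fold and 3.53-fold. In CPA their folds were 1.66-fold, 1.34-fold and 1.55-fold. In each the 37°C_DMSO library was the lowest of the 4.

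Mir5620 (30, 25, 49 and 65 counts), Mir670hg (32, 25, 41 and 50), Mir7653 (262, 172, 318 and 337, the counts of Tlcd1) and Mir8114 (199, 117, 247 and 241, the counts of Glul, which encodes glutamine synthetase) were called higher in CPA. Their folds there were 2.71-fold, 2.09-fold, 2.04-fold and 2.15-fold, and in DMSO 1.89-fold, 1.49-fold, 1.41-fold and 1.44-fold. These 4 had their lowest count in 37°C_CPA. Whether the cold fold differed between DMSO and CPA was not tested.

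Mir7009 stood out among the lower members by its abundance. It shared 8949, 5763, 1657 and 1683 counts with Anxa5, in which it lies, and both cold libraries were below both warm libraries. It was 4.66-fold (4.42 to 4.91) lower at 25 °C in DMSO and 3.28-fold (3.11 to 3.47) lower in CPA. Mir5131, in an exon of the phospholipase gene Ddhd1 (chr14:46277636-46277728, minus strand), shared 391, 359, 127 and 89 counts with it and was 2.66-fold (2.17 to 3.27) and 3.87-fold (3.06 to 4.93) lower.

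Mir574, in an intron of Fam114a1 (chr5:65361557-65361634, plus strand), shared 356, 218, 90 and 105 counts with that gene. It was 3.41-fold (2.70 to 4.35) lower at 25 °C in DMSO and 1.99-fold (1.57 to 2.54) lower in CPA, just outside the threshold. Mir7067 held 94, 58, 38 and 47 counts, the same as Snora68, and was 2.13-fold (1.45 to 3.20) lower in DMSO and 1.18-fold (0.791 to 1.78) in CPA. Mir7649 held 54, 64, 25 and 27, the same as Gm15987, and was called in CPA at 2.27-fold (1.43 to 3.71) lower, with 1.86-fold (1.14 to 3.12) in DMSO.

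Mir6236 was called lower at 25 °C in CPA, at 2.33-fold (2.27 to 2.39), against 1.20-fold (1.17 to 1.24) in DMSO. Its 25 °C libraries had 532 and 534 CPM, and 37°C_CPA, at 1241 CPM, was the library that stood apart. Mir124a-3 was at least 10.1-fold lower in 25°C_DMSO than in 37°C_DMSO, taking 3 counts as the floor (the counting interval starts at 7.76). Its higher library there held only 35 counts, under the minimum. In CPA the split of 163 and 1 counts gave 156-fold (27.7 to 6211) lower at 25 °C.

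**Figure D4:**
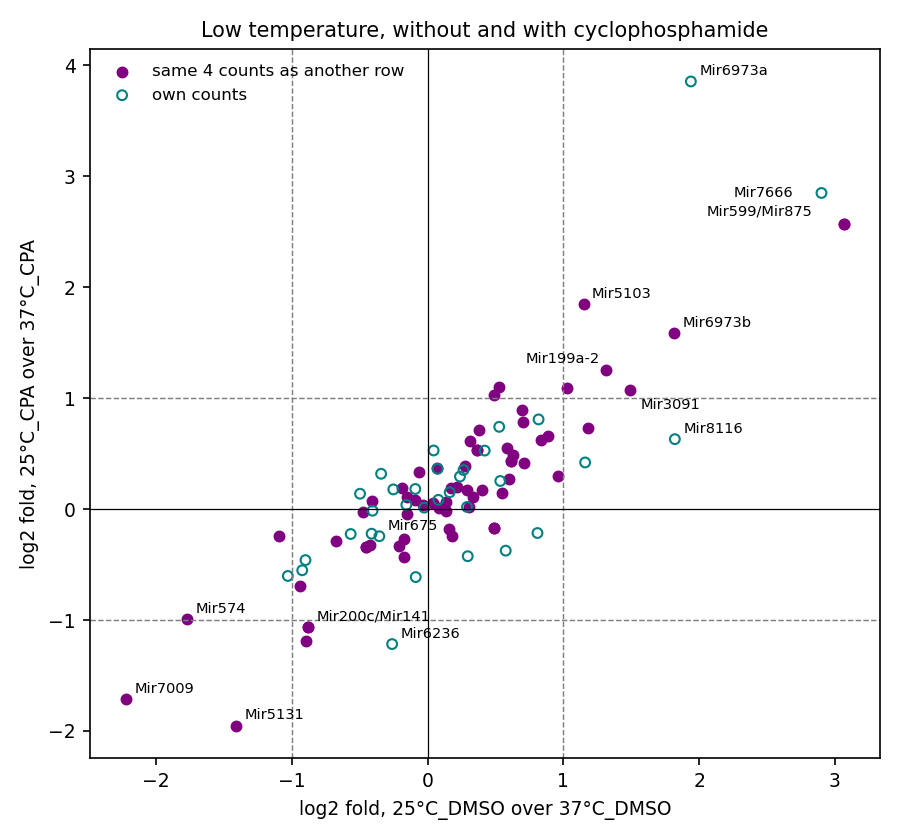
Log2 fold of each of 98 members measured in both drug states, 25 °C over 37 °C in DMSO (x axis) and in CPA (y axis), with dashed lines at 2-fold; filled points share all 4 counts with another row. Mir599 and Mir875, Mir7666 and Mir6973a lie at the upper right, and Mir7009 and Mir5131 at the lower left.

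Of the epithelial microRNA rows, Mir200c and Mir141, with 1 shared set of counts, were called lower at 25 °C, and in CPA only. Mir200c and Mir141, cut from one transcript and known to keep the epithelial state, lie in an intron of Gm15884 (chr6:124668340-124668408 and chr6:124667932-124668003, minus strand) and shared 275, 270, 129 and 124 counts with it and with Gm29008. Both 25 °C libraries were below both 37 °C libraries, by 1.84-fold (1.49 to 2.29) in DMSO and 2.09-fold (1.68 to 2.60) in CPA, and only the CPA comparison passed the threshold. CPA over DMSO was 1.06-fold (0.895 to 1.26) at 37 °C and 0.937-fold (0.726 to 1.21) at 25 °C.

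Mir205hg, the host of the epithelial microRNA miR-205, had 1166, 878, 539 and 612 counts. It was 1.87-fold (1.68 to 2.07) lower at 25 °C in DMSO and 1.38-fold (1.24 to 1.53) lower in CPA, neither past 2-fold. Mir203, a microRNA of differentiating epidermis, held 14, 16, 5 and 5 counts, under the minimum in every library.

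Over the same libraries the 4 dental epithelium markers summed to 1026, 1208, 901 and 914 CPM and none was called. Krt5 gave the largest share of that sum in each library. Cdh1, the E-cadherin gene, held 2743, 2546, 1252 and 1228 counts and the epithelial adhesion gene Epcam 4415, 3684, 2798 and 3028. Both were lower in both cold libraries than in both warm ones, as Mir200c and Mir141 were. Krt5 held 7513, 9376, 6838 and 6938 counts and Krt14 2706, 3275, 2278 and 2504. After scaling, neither of these keratin genes was lower in both cold libraries than in both warm ones. Cornifying epidermis markers summed to 128, 164, 76.2 and 53.03 CPM, with 1 of 3 measured called lower at 25 °C in DMSO and 2 of 3 in CPA, and Lor, the gene for the cornified envelope protein loricrin, at 0 in both cold libraries. The part of these markers in the members' differences was not tested.

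Of the miR-199 loci, which code for 1 printed 3p strand, Mir199a-2 was called and Mir199b was not. Mir199a-2 lies in an exon of Dnm3os (chr1:164147945-164148054, plus strand), a non-coding RNA known to carry miR-199a and miR-214, and shared its 411, 392, 722 and 800 counts. It was 2.04-fold (1.80 to 2.30) higher at 25 °C in DMSO and 2.13-fold (1.88 to 2.41) in CPA. Mir199b, inside Dnm1 on the opposite strand, shared 84, 54, 76 and 67 counts with Gm23363, and its folds were 1.05-fold (0.759 to 1.45) and 1.29-fold (0.891 to 1.89). The difference between the folds of these loci was not tested, as each rests on 1 library per condition.

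Mir199a-1, in an intron of Dnm2 on the opposite strand, held 22, 39, 31 and 21 counts, under the minimum. Mir214, also in Dnm3os, held 12, 7, 28 and 21, 2.92% of the counts of that gene, again under the minimum but higher in both cold libraries. Dental mesenchyme markers summed to 3443 and 2008 CPM at 37 °C and 1179 and 1189 CPM at 25 °C, with 1 of 5, the collagen gene Col1a1, called lower at 25 °C in both drug states. Col1a1 held 49104, 24034, 8264 and 8699 counts, the largest share of that sum in each library. The homeobox genes Msx1 and Barx1 held 2354, 2062, 3007 and 3346 counts and 748, 625, 1029 and 989. Both held more in both cold libraries than in both warm ones, as Mir199a-2 and Mir214 did. Pax9, with 978, 635, 873 and 914 counts, and Vim, with 5107, 4039, 4053 and 3879, held fewer in both cold libraries than in 37°C_DMSO. After scaling, Pax9 was slightly higher in both cold libraries than in both warm ones and Vim was not. None of these was called. The part of these markers in the members' values was not tested.

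The let-7 family, known for promoting differentiation and restraining growth, was present as Mirlet7i and Mirlet7e. Mirlet7i held 287, 275, 220 and 195 counts, the same as D630033A02Rik, at a locus outside other vM1 genes (chr10:122422696-122422780, minus strand). No call was made for it, and its cold folds were 0.888-fold (0.742 to 1.06) in DMSO and 0.740-fold (0.612 to 0.892) in CPA. Mirlet7e and Mir125a, which lie in one cluster, shared 13, 21, 28 and 19 counts, under the minimum.

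Seed partners at other loci differed widely in counts. Mir125b-1, with the seed CCCUGAG that it shares with Mir125a, held 1642, 1170, 2289 and 2088 counts, the same as Gm28119, and Mir100hg, the host gene of miR-100, let-7a-2 and miR-125b-1, held 2194, 1554, 2728 and 2491. Both were lowest in 37°C_CPA and highest in 25°C_DMSO. The Mir125b-1 hairpin lies within the vM1 span of Mir100hg on the same strand, so these rows may share tags and their like order is not independent. The cold folds of Mir100hg were 1.44-fold (1.36 to 1.52) and 1.67-fold (1.57 to 1.78). Mir148a held 150, 92, 102 and 110 counts of its own, and Mir152, of the same seed CAGUGCA, held 695, 519, 431 and 488, those of the coatomer gene Copz2 in an intron of which it lies.

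Of the other host genes, Mir99ahg held 530, 451, 612 and 623 counts and Mir22hg 486, 393, 221 and 257. Mir99ahg, the host of miR-99a, let-7c and miR-125b-2, was 1.34-fold (1.19 to 1.51) and 1.44-fold (1.27 to 1.63) at 25 °C over 37 °C. Mir22hg was 1.90-fold (1.61 to 2.23) lower in the cold in DMSO and 1.47-fold (1.25 to 1.72) lower in CPA. Neither host passed the threshold.

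The remaining host genes were near the floor or under the minimum. Mir17hg, the host of the growth-promoting miR-17-92 cluster, held 0, 1, 8 and 6 counts, nearly empty at 37 °C. Mir142hg and Mir155hg, hosts of microRNAs of blood and immune cells, held 16, 11, 15 and 9 and 8, 8, 6 and 15. Mir670hg alone of these reached 50 counts, in 25°C_CPA.

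Mir483 lies in an intron of Igf2 (chr7:149840829-149840901, minus strand) and held 523, 347, 221 and 219 counts, 2.04-fold (1.74 to 2.40) lower at 25 °C in DMSO and 1.52-fold (1.28 to 1.81) lower in CPA. Igf2 itself held 15645, 8507, 4218 and 3714, 3.20-fold and 2.20-fold lower. Mir675, processed from H19, was 1.28-fold (1.24 to 1.32) and 1.19-fold (1.15 to 1.22) lower at 25 °C, not called. Mir335, inside the imprinted gene Mest, held 18, 33, 24 and 20, and Mir210, the microRNA best known for its response to low oxygen, held 35, 22, 8 and 8, both under the minimum, with Mir210 lower in both cold libraries than in both warm ones.

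Bone and odontoblast markers also fell at 25 °C in DMSO, with 4 of 4 measured called lower, whereas in CPA 2 of 3 were called higher and 0 lower. Macrophage and leukocyte markers had 3 of 5 called lower at 25 °C in DMSO and 1 of 5 higher in CPA. In neither list was a marker at 0. Their part in the members' cold differences was not tested.

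The measured genes that make and use microRNAs changed less than 2-fold. Tnrc6c, on the list but under the minimum, held 11, 7, 25 and 23 counts. Its cold folds were 2.63-fold (1.25 to 5.93) in DMSO and 3.43-fold (1.42 to 9.46) in CPA. Of 31 on a list of cropping, export, dicing, Argonaute, decay and regulator genes, 28 had a row and 26 were measured in each comparison, with 0 called in either direction in all 4. The median log2 fold was -0.03 with CPA at 37 °C, 0.00 with CPA at 25 °C, and 0.09 in DMSO and 0.14 in CPA for 25 °C over 37 °C. The range at 37 °C ran from -0.44 for the helicase gene Mov10 to 0.47 for Dgcr8, and at 25 °C from -0.33 for Khsrp to 0.25 for Tut4, a uridylyltransferase gene.

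Drosha held 1132, 873, 785 and 851 counts, Dgcr8 494, 632, 469 and 435 and Xpo5 712, 689, 629 and 628. Dicer1 held 350, 349, 419 and 414 and Ago2, the Argonaute with slicing activity, 148, 132, 87 and 77. Dicer1 was 1.39-fold (1.20 to 1.60) in the cold in DMSO and 1.24-fold (1.07 to 1.43) in CPA. Ago2 went the other way, at 1.47-fold (1.12 to 1.94) lower in DMSO and 1.64-fold (1.23 to 2.21) lower in CPA, the lowest fold of the list in CPA. In DMSO the extremes were -0.79 on the log2 scale for the Drosha cofactor Ddx17 and 0.82 for Dis3l2, an exonuclease of uridylated let-7 precursors, and in CPA the highest was 0.78 for Prkra, a Dicer partner.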

How the data were processed

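CAGE libraries were made from total RNA of cultured tooth germs, 1 library for each of 4 conditions, and sequenced by a service provider. The authors aligned the tags to mm9, called start sites from them with SAMtools in the MOIRAI pipeline, and deposited raw counts for each gene as whole numbers. BWA 0.5.9 and the builds mm9 and GRCh38 appear in the submitters' processing notes, with no role for any. How tags were assigned to genes, and with which annotation, is not given in the sources used here.

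Members were matched by symbol, and rows with equal values in all 4 libraries were marked. TMM factors over all 4 libraries (1.029, 1.025, 0.967 and 0.980 for DMSO and CPA at 37 °C, then DMSO and CPA at 25 °C, edgeR 4.0.16, R 4.3.3) scaled the totals of 16449264, 15255885, 15101186 and 15297204 counts. A fold is the ratio of counts over total times factor. Its 95% interval is the exact binomial (Clopper-Pearson) interval of the split and covers counting error only. A count of 0 was set to 3 counts, which gives a bound, and no fold was given when both libraries held 3 or fewer. Rows with 50 or more counts in the higher library were measured, and those at 2-fold or more were called. The same rule over all rows gave the background.

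The members, the biogenesis list and the marker lists were chosen with earlier results of these data known, and 1 marker is not reported here. Named members were those called in any comparison, the 10 with the highest summed counts, host genes, and listed families (let-7, p53-induced, miR-17-92, epithelial, muscle, mesenchymal, blood, endothelial, hypoxia, nervous system, imprinted) with at least 10 counts in a library. Mir125b-1, Mir148a and Mir152, as seed partners or cluster members, and Mir1906-1 and Mir7084, as nearest the threshold, were named after their values were seen. Alternatives were no scaling, totals alone, DESeq2 1.42.0 size factors, minimums of 200, 10 or no counts, an interval beyond 2-fold, 10 counts added, identical rows once, and rows with identical counts left out. The fold calculation was tested on simulated data. Coordinates came from GENCODE vM1, which matched 78 of the 145 members, and mature sequences and overlaps with other genes from RefSeq (GRCm38).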

Additional observations from a re-analysis of the deposited data

Results flagged for a closer look

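For 6 members the counting interval of the CPA fold lay above 1 at one temperature and below 1 at the other. The share of all rows that meet this rule is not given here, so whether 6 members is unusual cannot be told. For rows with many counts these intervals are narrow. Mir599 and Mir875, which share their counts, were 1.28-fold at 37 °C and 0.907-fold at 25 °C, and Mir8116 was 1.65-fold and 0.723-fold. Mir207, with the counts of Dnaja1, was 0.845-fold at 37 °C and 1.11-fold at 25 °C, Mir7036b was 0.817-fold and 1.10-fold, and Mir8105 was 0.781-fold and 1.09-fold. Every one of these folds was under 2 in either direction. The difference between temperatures was not tested, since each condition has 1 library and the intervals cover counting error only.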

How the results depend on the processing

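Counts of called members depended most on the minimum count. With minimums of 200, 10 and no counts, members higher with CPA at 37 °C numbered 0, 6 and 7 in place of 1, and lower 0, 2 and 3 in place of 1. With CPA at 25 °C, where none was called, minimums of 10 and no counts gave 2 and 2 higher and 3 and 4 lower. At 25 °C over 37 °C in DMSO, the same 3 minimums gave 7, 21 and 24 higher in place of 12, and minimums of 10 and no counts gave 12 and 13 lower in place of 5. In CPA, no minimum gave 21 higher in place of 13, and minimums of 10 and no counts gave 17 and 18 lower in place of 7. The shares of all rows called at these other minimums are not given here, so these counts have no background beside them.

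When the interval also had to lie beyond 2-fold, 7 remained higher and 3 lower at 25 °C in DMSO, and 7 higher and 4 lower in CPA. Without the rows that share their counts, 0 of 34 measured members were higher and 1 lower with CPA at 37 °C. At 25 °C over 37 °C, 4 of 35 were higher and 1 lower in DMSO, and likewise in CPA, which is 11.4% and 2.86%. Of all measured members, 12% were higher and 5% lower in DMSO, and 12.9% and 6.93% in CPA. Of all measured rows, 6.45% were higher and 11.5% lower in DMSO, and 6.32% and 10.9% in CPA. No scaling gave 2 lower with CPA at 37 °C and 11 lower at 25 °C in DMSO, and moved the median log2 fold of all rows by -0.12 and -0.21 in these comparisons. Adding 10 counts gave 3 lower at 25 °C in DMSO.

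Of the biogenesis genes, minimums of 10 and no counts gave 1 and 1 higher at 25 °C in DMSO and 1 and 1 in CPA, and no scaling gave 1 lower in DMSO. Scaling by totals alone, DESeq2 size factors and taking identical rows once left every count of called members within 1.5 times. Among folds of named members under the alternatives, 46 lay outside their counting interval and 1379 inside, and no called fold changed direction. No paired analysis was possible because each condition has 1 library. Depth limited 42 of 145 members, which stayed under 50 counts in every library.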

Other observations

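Members under 50 counts were not measured, and some of them differed between the temperatures by more than most called rows. These were picked after their values were seen. Mir8102 held 1, 2, 30 and 45 counts in DMSO and CPA at 37 °C and in DMSO and CPA at 25 °C. Mir2139 held 17, 29, 1 and 1, the same as Klhdc7a. Mir1247, with the counts of Dio3os, an antisense RNA of the imprinted deiodinase gene Dio3, held 45, 24, 8 and 6, 4.85-fold lower at 25 °C in DMSO and 3.83-fold lower in CPA.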
